A study of Homo sapiens with 15 samples.

Results

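The genes of the constitutive proteasome, the protease complex that A549 cells carry whether or not they are stimulated, were followed across 15 Affymetrix expression arrays. Members were the probe sets whose single gene symbol begins with PSMA, PSMB, PSMC, PSMD or PSME and a digit, without the inducible subunits PSMB8, PSMB9 and PSMB10 and without pseudogenes. This gave 58 of the 22283 probe sets on the array. Of these, 55 belong to 33 genes, called subunit genes here after their symbols. Some of the 33, PSMD5 and PSMD10 among them, encode assembly chaperones and no part of the finished proteasome. The other 3 belong to PSMC3IP and PSME3IP1, whose products are no proteasome subunits and which passed no test. A further 5 probe sets that name a subunit beside another gene were not used. All 33 subunit genes were bright enough to be tested, among 6884 tested genes of 11963 in all.

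A549 is a human epithelial line derived from a lung adenocarcinoma, given in the labels as bronchial. Total RNA was measured in 5 groups of 3 arrays. They are cells at 0 h without treatment (ctr_0h), cells 4 h, 12 h and 24 h after IL-13 (IL13_4h, IL13_12h and IL13_24h), and control cells at 24 h (ctr_24h), whose label names no treatment and only their time. IL-13 is a cytokine of allergic airway inflammation, and its dose was not stated. There is no control group at 4 h or 12 h, so at those times IL-13 and time in culture cannot be told apart. The labels do not say whether replicates a, b and c were separate cultures, so the p-values speak for the variation among these arrays alone, part or all of which may be technical.

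Across the series, arrays of a group correlated at 0.972 to 0.979. The median signal per array was 59.1 ± 1.80 in ctr_0h, 61.6 ± 3.59, 62.4 ± 3.24 and 59.3 ± 4.44 in IL13_4h, IL13_12h and IL13_24h, and 69.5 ± 3.10 in ctr_24h (mean ± SD, n = 3). The 3'/5' signal ratio of the beta-actin control probe sets was 1.18 ± 0.081 in IL13_24h and 1.17 ± 0.066 in ctr_24h, against 1.001 ± 0.065 in ctr_0h. Of the epithelial markers, KRT8, KRT18, KRT19 and CDH1 were above the filter and EPCAM was not. Of the leukocyte markers PTPRC and CD14 were below the filter and CD3E above it. COL1A1 (of 3 fibroblast markers) and PECAM1 (of 3 endothelial markers) were also above it.

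The proteasome degrades proteins tagged with ubiquitin. Its core particle is a barrel of outer alpha rings, which gate the entrance (PSMA genes), and inner beta rings, which hold the proteolytic sites (PSMB genes). The cap, or regulatory particle, has a ring of ATPases that unfold the substrate (PSMC genes). It also has non-ATPase subunits that bind and remove ubiquitin or scaffold the cap (most PSMD genes). Alternative activators bind the ends of the core in place of the cap (PSME genes). Subunits are built in fixed proportions, and cells are known to raise their genes together through the transcription factor NFE2L1 when proteasome activity falls short. The array held 6 alpha ring, 7 beta ring, 5 ATPase, 12 non-ATPase and 3 activator genes with a probe set of 1 symbol.

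The first question was how the subunit genes stood after 24 h of IL-13 against control cells of the same time. PSMA2, PSMB7, PSMC2 and PSMD8 rose, each by about the same small amount, between 1.21-fold and 1.23-fold. No subunit gene fell. These 4 of 33 members compare with 7% of all tested genes called in either direction, and with 3.94% called higher and 3.07% called lower. Called or not, 27 of the 33 differences were above 0, with a median of 0.157 on the log2 scale, beside 0.0016 over all tested genes, of which 50.3% were above 0.

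Values given per array are the deposited signals on a linear scale, and differences are of normalized log2(signal + 20) with the standard error of the fit. PSMB7, the beta subunit with the trypsin-like activity, had signals of 1578, 1328 and 1519 in IL13_24h arrays a, b and c, against 1025, 1179.7 and 1099.6 in ctr_24h arrays. Every IL13_24h array stood above every ctr_24h array. Its difference was 0.28 ± 0.07 (limma, Benjamini-Hochberg adjusted p = 0.0311). PSMA2, a subunit of the alpha ring, had 1520.2, 1330.2 and 1386 in IL13_24h, against 1000.3, 1134 and 994 in ctr_24h, again without overlap. Its difference was 0.30 ± 0.09 (limma, adjusted p = 0.0473), close to the threshold.

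The ATPase gene PSMC2 had signals of 1167, 1088 and 1222 in IL13_24h and 891, 934 and 778 in ctr_24h. The groups did not overlap, and the difference was 0.30 ± 0.08 (limma, adjusted p = 0.0385). Its other probe set stood at 0.32 and did not pass (adjusted p = 0.123). PSMD8, a subunit of the lid of the cap, had 1571, 1504 and 1504 in IL13_24h and 1027, 1338 and 1096 in ctr_24h. The IL13_24h arrays lay close together and the ctr_24h arrays spread more widely, with array b nearest to the treated ones. The difference was 0.28 ± 0.08 (limma, adjusted p = 0.0433).

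**Figure D1:**
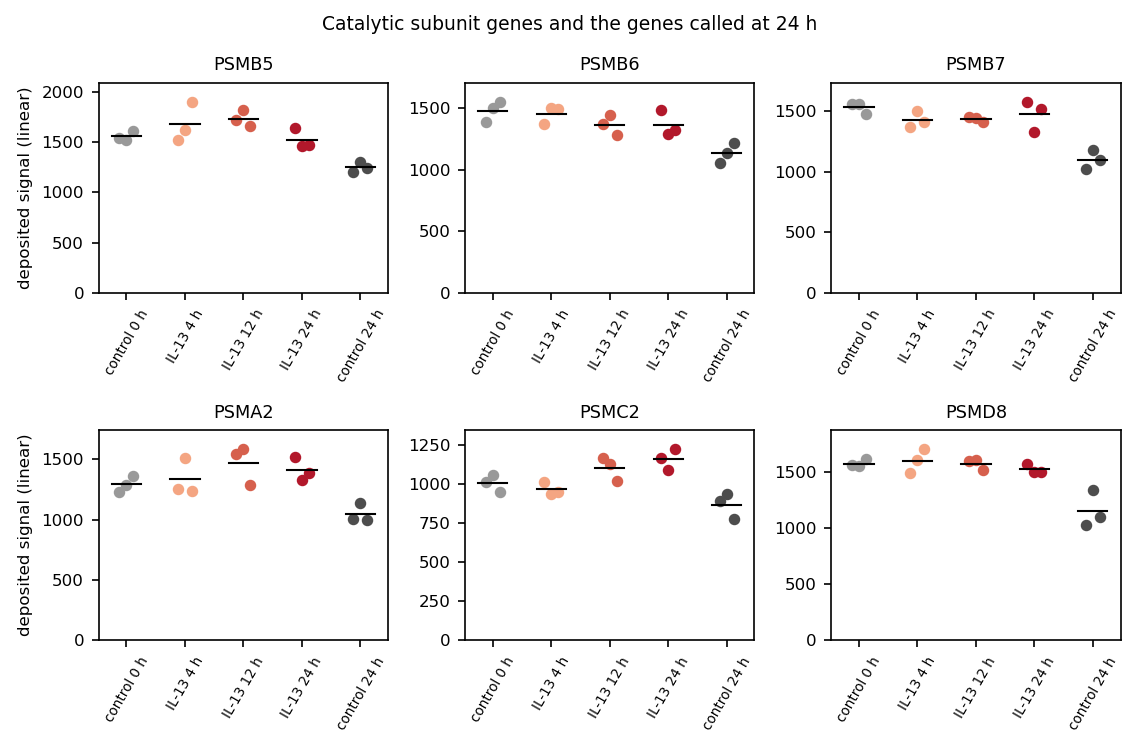
Deposited linear signal (y axis, from 0) of the catalytic genes PSMB5, PSMB6 and PSMB7 and of PSMA2, PSMC2 and PSMD8 in the 5 groups (x axis). Points are arrays and lines are means of 3 arrays; in all 6 panels every array of IL13_24h lies above every array of ctr_24h.

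The other catalytic genes showed smaller differences. PSMB5, which holds the chymotrypsin-like activity, stood at 0.14 with a 95% interval of -0.02 to 0.30, and PSMB6, with the caspase-like activity, at 0.13 with an interval of -0.04 to 0.30 (limma, adjusted p = 0.280 and 0.346). Deposited signals of PSMB5 were 1643, 1459 and 1473 in IL13_24h and 1203, 1306 and 1242 in ctr_24h. The groups did not overlap for PSMB5, in deposited or in normalized values. For PSMB6 the deposited signals did not overlap and the normalized values, on which the tests rest, did.

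By role, all 6 alpha ring genes stood above 0, from PSMA1 at 0.13 to PSMA2 at 0.30, with a median of 0.22. All 5 ATPase genes did so too, from PSMC1 at 0.06 to PSMC2 at 0.30 (median 0.20). In the beta ring 5 of 7 were above 0 (median 0.13), with PSMB2 the lowest at -0.05. Of the 12 non-ATPase genes 9 were above 0 (median 0.10). The lowest of them was PSMD5, a chaperone of ATPase assembly that leaves the finished proteasome, at -0.34 ± 0.18 (limma, adjusted p = 0.253). Its signals were 312, 333.5 and 329 in IL13_24h, all below the 384, 451 and 379.5 of ctr_24h. Among the activators PSME1, a subunit of a ring activator that interferon is known to induce, stood at 0.31 ± 0.10 and narrowly missed the threshold (limma, adjusted p = 0.0611), while the nuclear activator PSME3 stood at -0.05. In normalized values 11 members were higher in IL13_24h without overlap of the groups and 1, PSMD5, was lower, where 14.2% and 12.1% of all tested genes were so.

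**Figure D2:**
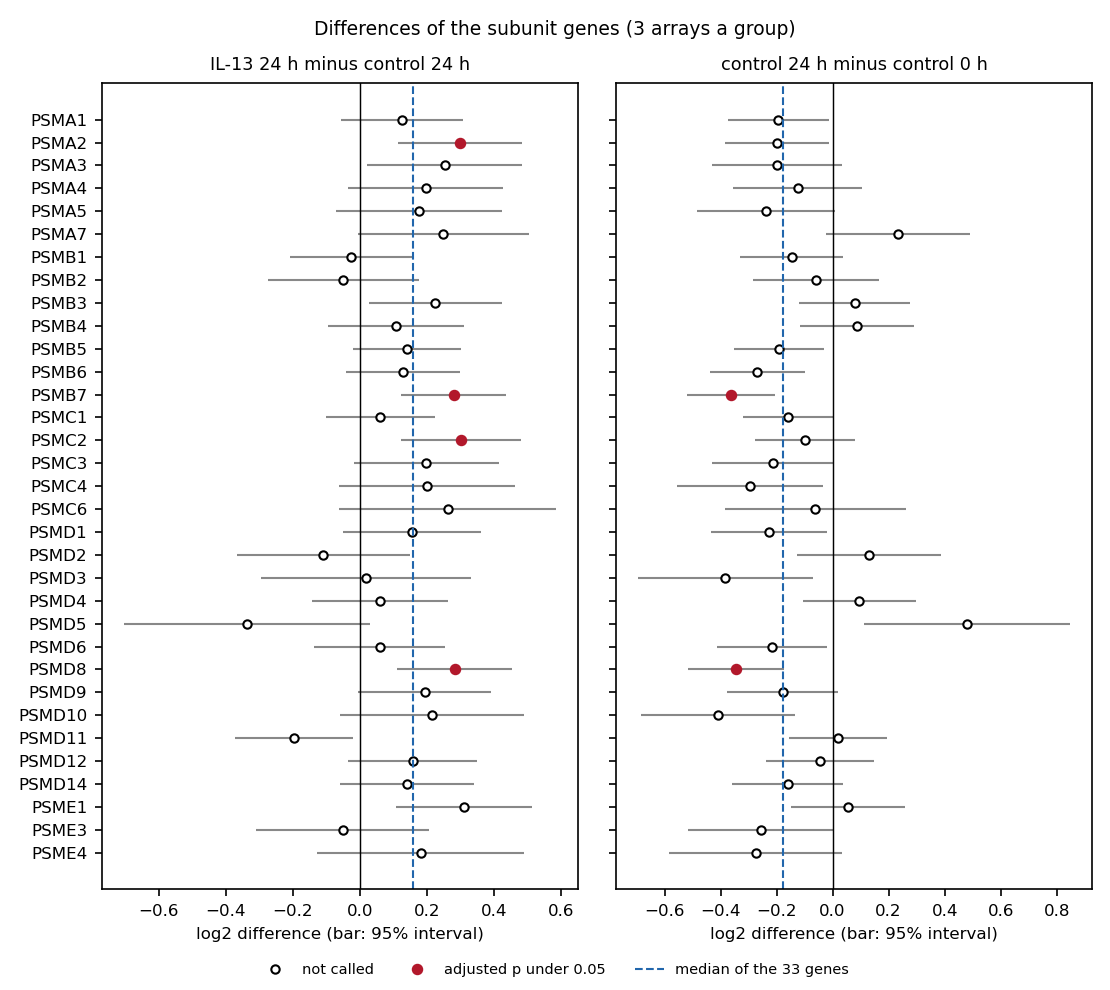
Log2 difference of each of the 33 subunit genes (points, x axis) with its 95% interval (bars), for IL13_24h minus ctr_24h on the left and ctr_24h minus ctr_0h on the right; filled points passed an adjusted p of 0.05 and the dashed line is the median of the 33 genes. The medians are 0.157 on the left and -0.178 on the right, and PSMD5 lies on the other side of 0 from the median in both panels.

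The calls at 24 h depended on the fit. Of 16 other settings PSMB7 was called in 9, PSMC2 in 8, PSMD8 in 7 and PSMA2 in 6. No member was called with only these groups in the fit, without the variance trend, or with a block for the replicate letter. Nor was any called without ctr_24h array a, ctr_24h array c, IL13_24h array a or IL13_24h array c. Without IL13_24h array b 1 was called. The median of the members stayed between 0.129 and 0.168 when any single array of the compared groups was left out. The markers of other cells were low: COL1A1, above the filter among 3 fibroblast markers, fell by 0.78 ± 0.15 in IL13_24h against ctr_24h (limma, adjusted p = 0.00495), and the summed signal of the 3 ran from 91.1 to 149 in IL13_24h and from 161 to 233 in ctr_24h. The epithelial keratin KRT8 rose by 0.40 ± 0.07 (limma, adjusted p = 0.0038), with the summed signal of 5 epithelial markers from 15713 to 19128 in IL13_24h and from 15335 to 16731 in ctr_24h. The A549 marker list, mostly detoxifying enzymes, stood lower: of 5 tested genes ALDH3A1 fell by 0.56 ± 0.10 (limma, adjusted p = 0.00326), none rose, and the median was -0.36. The summed signal of its 6 genes ran from 15743 to 17699 in IL13_24h and from 18348 to 20187 in ctr_24h, without overlap. No marker of these lists was at 0, and their part in the members' result was not tested.

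Promoter sequence is shown for genes that passed in some comparison, to show what stands before them. Of the 33 genes 28 matched an entry of RefSeq (GRCh38.p14). Each window is the 250 bases before the transcript start that the RefSeq promoter table uses, written 5′ to 3′ on the strand of the gene. For 3 genes, PSMA1, PSMC2 and PSMD6, that start lies inside the annotated gene, and the window lies partly or wholly within it. Of the 10 genes called in some comparison 6 are printed, PSMC2 and PSMD6 are not for that reason, and PSMB7 and PSMA7 are named only. Capitals mark the letters CCAAT, the box bound by the factor NF-Y, or TGACNNNGC, the antioxidant response element that NFE2L1 and NFE2L2 bind, on either strand (a CCAAT on the other strand reads ATTGG). PSMA2 and PSMD8 rose in IL13_24h against ctr_24h, PSMB3 and PSME1 rose against ctr_0h, and PSMA5 and PSMD11 fell in IL13_24h against IL13_12h. The genes PSMA2, PSMB7, PSMC2 and PSMD8 lie at chr7:42916861-42932174, chr9:124353465-124415442, chr7:103347524-103369395 and chr19:38374571-38383824.
PSMA2 (chr7:42932175-42932424, minus strand): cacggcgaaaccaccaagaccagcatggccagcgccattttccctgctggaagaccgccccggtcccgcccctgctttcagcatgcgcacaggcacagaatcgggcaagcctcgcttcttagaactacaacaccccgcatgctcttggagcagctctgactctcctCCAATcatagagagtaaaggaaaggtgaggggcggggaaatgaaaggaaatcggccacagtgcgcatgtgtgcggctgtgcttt
PSMD8 (chr19:38374321-38374570, plus strand): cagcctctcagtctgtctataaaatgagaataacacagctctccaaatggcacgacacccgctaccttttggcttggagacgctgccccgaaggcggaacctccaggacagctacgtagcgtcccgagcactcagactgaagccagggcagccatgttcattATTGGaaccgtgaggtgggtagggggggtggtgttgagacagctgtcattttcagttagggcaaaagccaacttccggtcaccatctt
PSMB3 (chr17:38752491-38752740, plus strand): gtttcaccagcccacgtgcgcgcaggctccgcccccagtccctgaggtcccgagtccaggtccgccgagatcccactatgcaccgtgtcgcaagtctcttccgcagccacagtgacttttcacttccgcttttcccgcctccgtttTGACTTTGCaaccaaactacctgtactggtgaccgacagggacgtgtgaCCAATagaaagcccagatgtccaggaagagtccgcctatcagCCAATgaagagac
PSMA5 (chr1:109426449-109426698, minus strand): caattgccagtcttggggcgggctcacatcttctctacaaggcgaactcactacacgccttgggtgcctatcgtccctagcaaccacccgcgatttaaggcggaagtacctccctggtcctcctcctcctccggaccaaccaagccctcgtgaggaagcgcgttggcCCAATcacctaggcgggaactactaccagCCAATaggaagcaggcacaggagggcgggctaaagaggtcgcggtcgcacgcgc
PSME1 (chr14:24135944-24136193, plus strand): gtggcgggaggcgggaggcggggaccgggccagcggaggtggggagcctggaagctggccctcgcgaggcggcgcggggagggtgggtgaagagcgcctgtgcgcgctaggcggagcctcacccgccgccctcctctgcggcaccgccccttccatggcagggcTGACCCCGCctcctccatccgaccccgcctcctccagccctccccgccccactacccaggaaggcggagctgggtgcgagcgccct
PSMD11 (chr17:32444260-32444509, plus strand): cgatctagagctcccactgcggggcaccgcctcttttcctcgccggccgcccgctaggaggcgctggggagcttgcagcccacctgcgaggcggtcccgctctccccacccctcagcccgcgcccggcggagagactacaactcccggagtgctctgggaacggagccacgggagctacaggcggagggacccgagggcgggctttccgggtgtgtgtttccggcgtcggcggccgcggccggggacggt

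The PSMA2 and PSMD8 windows hold 1 CCAAT box each, PSMA5 holds 2, and PSMB3 holds 2 with 1 antioxidant element. PSME1 holds 1 antioxidant element and no CCAAT, and PSMD11 holds neither. Over the 28 windows, CCAAT occurred in 13 (46.4%), beside 33% of 27305 promoter windows of the same length. TGACNNNGC occurred in 7 (25%, beside 11%), in PSMB3, PSMD3, PSMD5, PSMD9, PSMD12, PSME1 and PSME4. GGGCGG, the GC box, occurred in 17 (60.7%, beside 42.3%), and CCGGAAG, a core bound by ETS factors, in 7 (25%, beside 8.82%). The palindrome that STAT6 binds, TTC and GAA with any 4 bases between them, occurred in 1, PSMA3 (3.57%, beside 5.35%). All motifs were searched on both strands, and some of them can overlap. These are matches of letters, not sites shown to be bound.

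The same genes were then compared between control cells at 24 h and at 0 h. This comparison shares the ctr_24h arrays with the one above, so each is given with its own values. PSMB7 and PSMD8 fell. No member rose. These 2 of 33 compare with 3.62% of all tested genes called, 1.73% higher and 1.89% lower. In all, 25 of 33 differences were below 0, with a median of -0.178, beside -0.0030 over all tested genes.

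PSMB7 had 1025, 1179.7 and 1099.6 in ctr_24h, against 1565, 1563 and 1479 in ctr_0h. It fell by 0.36 ± 0.07 (limma, adjusted p = 0.0139), and the groups lay far apart. PSMD8 had 1027, 1338 and 1096 in ctr_24h, against 1564, 1553 and 1615 in ctr_0h, and fell by 0.34 ± 0.08 (limma, adjusted p = 0.0264). The catalytic gene PSMB6 stood at -0.27 ± 0.08 (limma, adjusted p = 0.0716), and PSMB5 at -0.19 ± 0.08 (limma, adjusted p = 0.177). The assembly chaperone PSMD10 (gankyrin) stood lowest, at -0.41 ± 0.13 (limma, adjusted p = 0.0891), with signals of 594, 674 and 491 in ctr_24h and 929, 821 and 747 in ctr_0h.

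The beta ring gene PSMB4 stood highest of its ring, at 0.09, and PSME1 highest of the activators, at 0.06, while PSME4 stood at -0.27. All 5 ATPase genes were below 0, with PSMC4 the lowest at -0.29, and so were 5 of 6 alpha ring genes, with PSMA5 at -0.24. The alpha ring gene above 0 was PSMA7, at 0.23 ± 0.12 (limma, adjusted p = 0.309). PSMD5 again lay apart from the rest, at 0.48 ± 0.18 (limma, adjusted p = 0.133). Its signals were 384, 451 and 379.5 in ctr_24h, all above the 336, 266 and 271 of ctr_0h. In normalized values 11 members were lower in ctr_24h without overlap and 1 was higher, where 12.6% and 12.2% of all tested genes were so. PSMB7 was called in 14 of 16 other settings and PSMD8 in 9. No member was called without ctr_0h array b or ctr_24h array a, and 1 without ctr_0h array a, ctr_0h array c or ctr_24h array c.

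Taking the 5 groups together, ctr_24h was the group with the lowest mean for 20 of 33 subunit genes and with the highest for none. Over all tested genes, 25.1% had their lowest mean and 23.3% their highest there. The highest mean was in IL13_12h for 15 members, where 19.5% of all tested genes had theirs. In the single arrays, 30, 25 and 27 of the 33 members lay below their own mean in ctr_24h arrays a, b and c, where 49.5%, 49.7% and 49.2% of tested genes did. No other array had more than 18 members below their own mean. Arrays were scaled to each other, so these are levels of bulk RNA relative to other genes. Lower levels in all cells and in a part of the cells cannot be told apart.

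**Figure D3:**
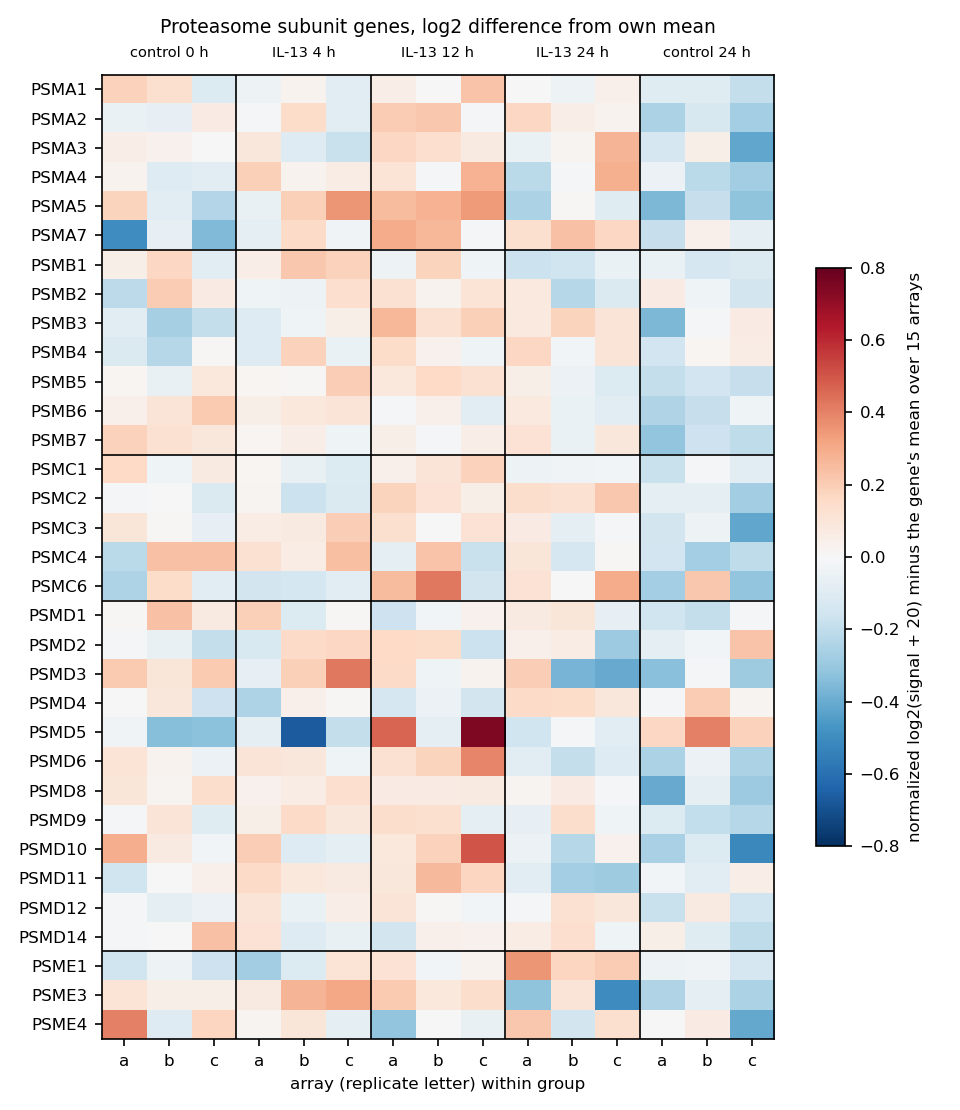
Normalized log2(signal + 20) of each subunit gene (rows, in blocks by role) minus its own mean over 15 arrays, for each array (columns, a to c in each group), on a colour scale from -0.8 (blue) to 0.8 (red). In ctr_24h arrays a, b and c, 30, 25 and 27 of the 33 genes lie below 0.

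The ctr_24h arrays also had the highest median signal, 69.5 ± 3.10, against 59.3 ± 4.44 in IL13_24h and 59.1 ± 1.80 in ctr_0h. The actin ratio was also higher in both 24 h groups than in ctr_0h. Of the 5 tested A549 markers AKR1C1 rose in ctr_24h against ctr_0h, by 0.74 ± 0.16 (limma, adjusted p = 0.0183), and the list's summed signal ran from 18348 to 20187 in ctr_24h and from 16947 to 17717 in ctr_0h. The part of any of these in the result was not tested. The size of the member differences depended on how arrays were scaled to each other. For IL13_24h against ctr_24h the member median was 0.157 with quantile normalization, 0.245 as deposited, 0.292 scaled on the median of the tested genes and 0.420 scaled on the median of all probe sets. The last scaling moved the median of all tested genes to 0.138, and the members lay above it. It called 20 members higher, against 4 with quantile normalization, 6 as deposited and 11 with the tested-gene median. For ctr_24h against ctr_0h the member medians were -0.178, -0.267, -0.310 and -0.44 in the same order of scalings, with 2, 5, 10 and 21 members lower. The median of all tested genes was at -0.147 under the last. The member median kept its sign under these 4 scalings in both comparisons. Shares of all tested genes called under the scalings other than quantile normalization are not given here. The counts of called members under them therefore have no background beside them and are no result about the members alone.

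**Figure D4:**
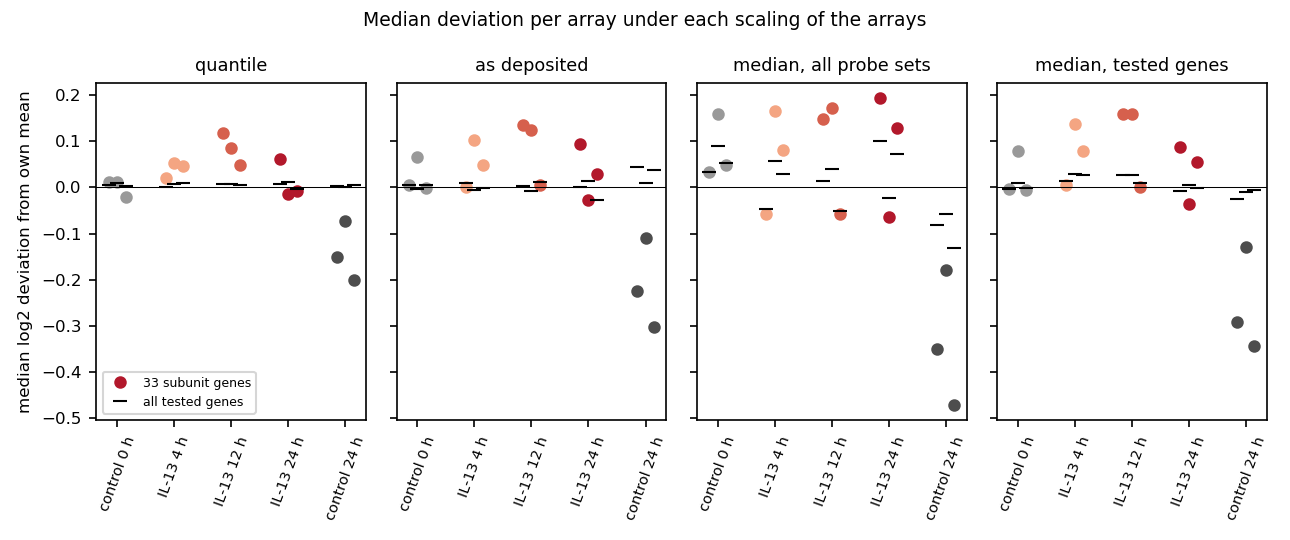
Median log2 deviation from the own mean (y axis) of the 33 subunit genes (points) and of all tested genes (dashes) on each array, under 4 scalings of the arrays (panels), with groups on the x axis. In each panel the 3 points of ctr_24h are the lowest, from -0.07 to -0.20 with quantile normalization and from -0.18 to -0.47 with the median of all probe sets.

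How the genes moved over time under IL-13 was asked against ctr_0h, which is shared by the next 3 comparisons. After 4 h limma called no member, beside 1.22% of all tested genes. At an unadjusted p under 0.05 there was 1 member of 33, PSMA7, at 0.32 ± 0.12 (limma, adjusted p = 0.293). Of all tested genes 4.29% were higher and 6.36% lower at that unadjusted threshold. The catalytic genes stood at 0.06 (PSMB5), -0.04 (PSMB6) and -0.12 (PSMB7), none with an adjusted p under 0.607. The member median was 0.02. Among the extremes by role, PSMA1 stood at -0.10, PSMB3 at 0.15, PSMC1 at -0.12 and PSMC3 at 0.09, PSMD10 at -0.11 and PSMD2 at 0.15, and PSME4 at -0.15 and PSME3 at 0.15. Without overlap of the groups 1 member was higher, PSMD11, and 1 lower, PSMB7, where 7.99% and 9.36% of all tested genes were so. The 1.22% of genes called split into 0.349% higher and 0.872% lower.

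After 12 h PSMA7, an alpha ring subunit, and PSMB3, a non-catalytic beta ring subunit, rose. These 2 of 33 compare with 4.14% of all tested genes called, 1.55% higher and 2.59% lower. PSMA7 had signals of 354, 347 and 277 in IL13_12h, against 199, 273 and 222 in ctr_0h, where array b came close to the lowest treated array, all on 1 of its 2 probe sets. It rose by 0.49 ± 0.12 (1.40-fold, limma, adjusted p = 0.0277). PSMB3 had 2764, 2529.6 and 2462 in IL13_12h, against 2019.6, 1905 and 1903 in ctr_0h, and rose by 0.37 ± 0.09 (1.29-fold, limma, adjusted p = 0.0304). Those groups lay well apart.

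The largest difference at 12 h was that of PSMD5, at 0.61 ± 0.18 (limma, adjusted p = 0.0547). Its IL13_12h arrays spread widely, with 476, 324 and 578 against 336, 266 and 271 in ctr_0h, and array b of IL13_12h lay below array a of ctr_0h. PSMA5 stood at 0.34 ± 0.12 (limma, adjusted p = 0.127). In this comparison 23 of 33 members were above 0, all 6 of the alpha ring among them, and the median was 0.08. The catalytic genes stood at 0.11 (PSMB5), -0.14 (PSMB6) and -0.10 (PSMB7). The ATPase genes ran between PSMC4 at -0.09 and PSMC6 at 0.24, and PSMD1 was the lowest of the cap at -0.16, while PSME1 stood at 0.16. Without overlap 8 members were higher and 1 lower, where 11.6% and 12.1% of tested genes were so. PSME4, which encodes a single-chain activator, was the lowest member at -0.28 ± 0.15 (limma, adjusted p = 0.346). No member was called with the arrays scaled on the median of all probe sets, or without ctr_0h array c or IL13_12h array a, and 1 was called without ctr_0h array a, ctr_0h array b or IL13_12h array c. PSMA7 and PSMB3 were each called in 9 of 16 other settings.

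After 24 h, still against 0 h, PSMA7 and PSME1 rose. These 2 of 33 compare with 6.87% of all tested genes called, 3.4% higher and 3.47% lower. PSMA7 had 322, 334 and 332 in IL13_24h, against 199, 273 and 222 in ctr_0h, and rose by 0.48 ± 0.12 (1.40-fold, limma, adjusted p = 0.0229). PSME1 had 1116, 919.9 and 997.5 in IL13_24h, against 748, 839.6 and 749 in ctr_0h, without overlap. It rose by 0.37 ± 0.10 (1.29-fold, limma, adjusted p = 0.0296). PSMB3 stood at 0.30 ± 0.09 (limma, adjusted p = 0.0620). Of the 4 genes called against ctr_24h, here PSMB7 stood at -0.08, PSMD8 at -0.06, PSMA2 at 0.10 and PSMC2 at 0.20, none past the threshold. The other catalytic genes stood at -0.05 (PSMB5) and -0.14 (PSMB6). The member median was -0.05, with 14 of 33 above 0, and the lowest gene was the lid subunit PSMD3, at -0.36 ± 0.15 (limma, adjusted p = 0.167). By role, PSMA1 stood at -0.07, PSMB1 at -0.17, PSMC1 at -0.10, PSMD4 at 0.16 and PSME3 at -0.31. Without overlap 5 members were higher and 1 lower, where 13.7% and 13% of tested genes were so. No member was called with scaling on the median of all probe sets, or without ctr_0h array a, ctr_0h array c or IL13_24h array c. PSMA7 was called in 10 of 16 other settings and PSME1 in 8.

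**Figure D5:**
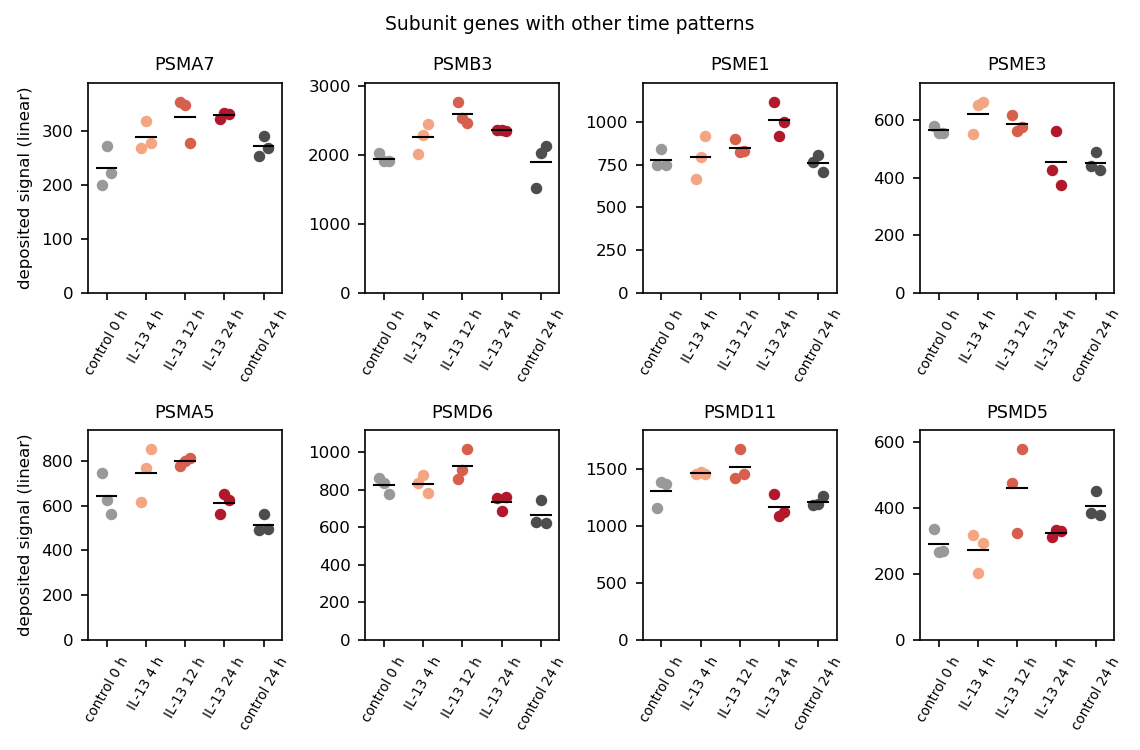
Deposited linear signal (y axis, from 0) of PSMA7, PSMB3, PSME1, PSME3, PSMA5, PSMD6, PSMD11 and PSMD5 in the 5 groups (x axis), with points for arrays and lines for means of 3 arrays. PSMA7 and PSME1 are higher in IL13_24h than in ctr_0h, and PSMA5, PSMD6 and PSMD11 are lower in IL13_24h than in IL13_12h.

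Between successive times of IL-13, 12 h against 4 h gave no call among the members and 0% of all tested genes. At an unadjusted p under 0.05 limma had 4 of 33 members, all higher, beside 4.79% of all tested genes higher and 5.33% lower. These members were PSMD5 (0.69 ± 0.18, limma, adjusted p = 0.129), PSMB3 (0.22), PSMC2 (0.20) and PSMC1 (0.16). The catalytic genes stood at 0.05 (PSMB5), -0.10 (PSMB6) and 0.02 (PSMB7), and by role PSMA3 at 0.19, PSMB1 at -0.12, PSMC4 at -0.15, PSMC6 at 0.30, PSMD3 at -0.14, PSME1 at 0.13 and PSME4 at -0.14. Without overlap 5 members were higher and 1 lower, where 7.83% and 7.12% of tested genes were so. IL13_24h against IL13_12h gave PSMD11, PSMA5 and PSMD6 as lower and no member as higher, beside 6.2% of all tested genes called, 4.14% higher and 2.06% lower.

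PSMD11, a lid subunit known to stimulate proteasome assembly, had signals of 1282, 1087 and 1125 in IL13_24h, against 1419.5, 1674.5 and 1461 in IL13_12h. It fell by 0.39 ± 0.08 (1.31-fold, limma, adjusted p = 0.00969). PSMA5, of the alpha ring, had 562, 652 and 627 in IL13_24h, against 777, 801.5 and 814 in IL13_12h, and fell by 0.40 ± 0.12 (limma, adjusted p = 0.0486). PSMD6, another lid subunit, had 755, 684.5 and 760.4 in IL13_24h, against 860.1, 907 and 1016 in IL13_12h, and fell by 0.36 ± 0.09 (limma, adjusted p = 0.0285). In all 3 genes no array of IL13_24h reached any array of IL13_12h. PSME3 stood at -0.39 ± 0.12 (limma, adjusted p = 0.0705) and the ubiquitin receptor PSMD4 at 0.24 ± 0.10 (limma, adjusted p = 0.165). PSMB5 stood at -0.16, PSMB6 at -0.0036 and PSMB7 at 0.02. By role, PSMB2 stood at -0.18, PSMB4 at 0.03, PSMC1 at -0.14, PSMC2 at 0.05, PSMD5 at -0.47 and PSME1 at 0.20. Without overlap 7 members were lower and 2 higher, where 11.7% and 13.3% of tested genes were so. No member was called with scaling on the median of all probe sets, and 1 was called without IL13_12h array c, IL13_24h array a or IL13_24h array c. The call of PSMD11 held in 14 of 16 other settings and that of PSMD6 in 9, whereas PSMA5 was called in 3, with adjusted p-values (limma) from 0.0402 to 0.200.

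Of the 33 genes 15 have several probe sets, and some of these did not move together. For PSMA7 the calls rest on its _s_at probe set, which is much dimmer than its _x_at set (mean signals of 231 and 2011 in ctr_0h). The _x_at probe set, of a kind that can cross-hybridize, gave 0.18 at 12 h and 0.16 at 24 h against 0 h, and neither passed (limma on every probe set, adjusted p = 0.685 and 0.712). For PSMD1, a scaffold of the cap, the probe set that did not stand for the gene fell in IL13_24h against ctr_0h by 0.43 (limma on every probe set, adjusted p = 0.0121), where the one used was at -0.07. In IL13_24h against IL13_12h the same probe set fell by 0.35 (limma on every probe set, adjusted p = 0.0432), where the one used was at 0.09. PSMD11 differed in sign between its probe sets for IL13_24h against ctr_24h, at 0.73 for its _at set and -0.20 for its _s_at set, the one used, neither past the threshold. For PSME3, 1 of 4 probe sets fell in ctr_24h against ctr_0h by 0.58 (limma on every probe set, adjusted p = 0.0128), and the other 3 probe sets were also below 0 there. In IL13_24h against IL13_12h 1 of the 4 PSME3 probe sets was also called lower, and all 4 stood between -0.39 and -0.16. With every probe set as its own test, PSMB7, PSMC2 and PSMD8 were called in IL13_24h against ctr_24h, 3 of 52 probe sets above the filter, beside 3.6% of all called higher and 2.89% lower. In that fit 3 member probe sets were lower in ctr_24h against ctr_0h (beside 1.9% higher and 2.35% lower), and 0 were called in IL13_4h against ctr_0h (0.305% and 0.721%). There were 2 higher in IL13_12h against ctr_0h (1.49% and 2.49%), 2 higher and 1 lower in IL13_24h against ctr_0h (3.09% and 3.4%), and 4 lower in IL13_24h against IL13_12h (3.52% and 1.96%).

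The genes around the proteasome were counted as lists. Of the inducible subunits that replace the catalytic ones in the immunoproteasome, PSMB9 and PSMB10 were bright enough to test, and both rose in IL13_24h against ctr_24h. PSMB9 had 209, 208.9 and 195 in IL13_24h, against 106, 105 and 105 in ctr_24h, a rise of 0.93 ± 0.10 (limma, adjusted p = 5.1e-05), and PSMB10 rose by 0.80 ± 0.16 (limma, adjusted p = 0.00619). PSMB9 also fell in ctr_24h against ctr_0h, by 0.44 ± 0.10 (limma, adjusted p = 0.0264), with 135, 152 and 132 in ctr_0h, and its rise in IL13_24h against ctr_0h was 0.49 ± 0.10 (limma, adjusted p = 0.00844). PSMB10 rose by 0.65 ± 0.16 against ctr_0h (limma, adjusted p = 0.0185). Of the assembly chaperones that are not among the members, 0 of 4 tested genes passed in any of the 7 comparisons. PAAF1, PSMG1 and PSMG2 stood at 0.29, 0.18 and 0.16 in IL13_24h against ctr_24h and POMP at -0.19. Of the proteins that associate with the proteasome 0 of 9 passed in any comparison. Nor did any of 3 ubiquitin genes, UBB, the activating enzyme gene UBA1 and the conjugating enzyme gene UBE2K. ADRM1, 1 of these 9, stood at -0.39 ± 0.12 in IL13_24h against ctr_24h and narrowly missed the threshold (limma, adjusted p = 0.0552). The median of the 9 was 0.01 there.

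Among 8 regulators of proteasome genes, transcription factors and the enzyme NGLY1, none passed in IL13_24h against ctr_24h. In IL13_24h against ctr_0h 1 of the 8 was called higher, and in IL13_24h against IL13_12h 1 was called higher. NFE2L1 stood at 0.17 in IL13_24h against ctr_24h. In IL13_12h against ctr_0h NFE2L1 fell by 0.53 ± 0.14 (limma, adjusted p = 0.0356). Its signals were 314, 276 and 224 in IL13_12h and 366, 421 and 424 in ctr_0h. NFE2L2, the factor of the oxidative stress response, rose in ctr_24h against ctr_0h by 0.51 ± 0.10 (limma, adjusted p = 0.00799), where STAT3 fell by 0.35 ± 0.10 (limma, adjusted p = 0.0495). NFE2L2 stood at 0.05 in IL13_24h against ctr_24h. Of 5 tested shuttle receptor and segregase genes, RAD23B, which carries ubiquitin-tagged proteins to the proteasome, fell in IL13_12h against ctr_0h by 0.43 ± 0.11 (limma, adjusted p = 0.0408).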

How the data were processed

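Signal intensity per probe set was taken as deposited, on a linear scale, from 15 arrays. What software made the intensity values the authors deposited was not stated. Symbols came from the platform annotation. To each signal 20 was added, log2 taken, and arrays quantile normalized. A gene was represented by its probe set with the highest mean (an _x_at set only where it had no other). Genes were kept where their mean exceeded 6.33, which is the middle value over non-control probe sets, leaving 6884 of 11963. They were fitted in limma 3.58.1 (R 4.3.3) with a mean for each group and a trend of variance with level. Tests were two-sided, p-values were adjusted by Benjamini-Hochberg across all 6884 genes, the threshold was 0.05, and 7 comparisons were made. The steps were tested on simulated data. With 3 arrays per group, their number limits precision, and adding 20 understates changes of dim genes.

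The members and lists were chosen with earlier results of these data known. The genes named are members past the threshold, the largest rise and fall in each role group, PSMB5, PSMB6 and PSMB7, and members whose probe sets differ in sign where 1 passes. Further values below the threshold were named after they were seen. Alternatives were other scalings, pseudocounts of 1 and 62, no filter, other uses of probe sets, fewer groups in the fit, no trend, a block for the replicate letter, and each array left out in turn.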

Additional observations from a re-analysis of the deposited data

How the results depend on the processing

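Counts of called members changed under many settings, and the cause was not tested. Shares of all tested genes called under the same settings are not given here, so these counts are no result about the members alone. For IL13_24h against ctr_24h, with 4 called, the count was 20 with median scaling of all probe sets, 11 with tested-gene median scaling, 2 with no filter, and 0 with only the compared groups, with no variance trend and with the replicate block; leaving out an array gave 0 to 4. For ctr_24h against ctr_0h, with 2 called, it was 5 as deposited, 21 with median scaling, 10 with tested-gene median scaling, 1 with only the compared groups and 1 with no variance trend; leaving out an array gave 0 to 2. For IL13_12h against ctr_0h, with 2 called, it was 0 with median scaling and 1 each with no filter, the mean of probe sets, only the compared groups and no variance trend (0 to 2 without an array). For IL13_24h against ctr_0h, with 2 called, it was 0 with median scaling and 1 each with tested-gene median scaling, the mean of probe sets, no variance trend and the replicate block (0 to 2 without an array). For IL13_24h against IL13_12h, with 3 called, it was 0 with median scaling and 1 with no variance trend (1 to 3 without an array). The other 75 of 119 counts stayed within 1.5 times.

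Differences near 0 turned sign. PSMB2 in IL13_24h against ctr_24h was 0.057 as deposited, 0.23 with median and 0.10 with tested-gene median scaling, and ran from -0.131 to 0.021 without an array; PSME3 there was 0.16 and 0.036 with these scalings, 0.044 with the mean of probe sets, and -0.222 to 0.079 without an array. In ctr_24h against ctr_0h, as deposited, with median and with tested-gene median scaling, PSMB4 was -0.024, -0.20 and -0.067 and PSME1 was -0.036, -0.21 and -0.079. Without an array in IL13_4h against ctr_0h, PSMB5 ran from -0.0023 to 0.096 and PSMB6 from -0.078 to 0.0090. In IL13_12h against IL13_4h, PSMB1 was 0.041 and PSME4 0.073 with the mean of probe sets, and PSMB7 was -0.0064 with median scaling and -0.0018 to 0.041 without an array. In IL13_24h against IL13_12h, PSMB6 was 0.00061 as deposited and 0.056 with median scaling, PSMC2 was -0.0088 with probe sets averaged, and when 1 array was left out PSMB4 ran from -0.010 to 0.085, PSMB6 from -0.054 to 0.031 and PSMB7 from -0.013 to 0.073.

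The median of all members in IL13_4h against ctr_0h was -0.03 with median scaling of all probe sets.

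No pairing of the arrays by replicate letter was seen. Deviations of same-letter arrays from different groups correlated at a median of -0.0023, with 3 of 30 pairs over 0.1. Those of different letters had a median of 0.0024, with 7 of 60 pairs over 0.1. By mean correlation with the arrays of each letter, 4 of 15 arrays stood highest with their own letter.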
